A study of Homo sapiens with 15 samples.

Results

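Chemokines are small secreted proteins that steer leukocytes along a concentration gradient, and chemokine receptors are the G protein-coupled receptors that read that gradient. The genes described here are 10 members of this system, 6 ligands (CCL2, CCL3, CCL4, CCL5, CXCL2 and IL8, now named CXCL8) and 4 receptors (CCR1, CCR2, CX3CR1 and CXCR4), among 57820 gene identifiers in the data. They were taken by symbol as a functional group, at a time when their values in these libraries were already known. Their levels, calls and p-values therefore describe these libraries, and counts of called members support nothing further. In the myeloid lineage CCL2 and its receptor CCR2 are known for monocyte recruitment, IL8 and CXCL2 for neutrophil recruitment through CXCR2, and CXCR4 for holding blood progenitors and leukaemic blasts in the bone marrow. CCL3 and CCL5 bind CCR1, and CX3CR1 is the receptor of the membrane-bound chemokine CX3CL1.

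RNA was sequenced from U937, MOLM-13 and HL-60, 3 human acute myeloid leukaemia (AML) lines that carried either the empty vector pLKO or shRNF5, a short hairpin RNA against the ubiquitin ligase RNF5. No drug or other agent is named in the labels, and neither the hairpin used for sequencing nor the number of transduced populations behind the libraries is given in the sources used here. There were 3 pLKO and 2 shRNF5 libraries of MOLM-13, 2 of each for U937 and 3 of each for HL-60, so that p-values measure the spread between these 15 libraries, which may be technical. RNA was collected 7 days after knockdown according to the sample labels and 5 days according to the series design. Values are the authors' normalized read counts, scaled per library within a line and rounded, and a gene that failed their filter in a line is listed at 0 there. Estimated depth was 9700000 to 63800000 reads per library, and 1 read was worth 0.398 to 2.561 units of the normalized read count. A gene is called here when limma's adjusted p-value is under 0.1 and its log2 fold change, computed on log2(value + 1), exceeds 0.4 in size.

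RNF5 itself was lower in every shRNF5 library than in any pLKO library of its line. It was 1223, 1017 and 1020 with pLKO against 76 and 81 with shRNF5 in MOLM-13, 648 and 843 against 46 and 74 in U937, and 506, 689 and 545 against 37, 133 and 43 in HL-60. Of 11 myeloid markers, MOLM-13 had 10 above 0, U937 had 9 and HL-60 had 8. CD68 was listed at 0 in all 15 libraries, CD14 also in U937 and HL-60, and CSF1R also in HL-60, so a listing at 0 here does not show that a transcript is absent. The 4 T and NK cell markers and the 2 erythroid markers were listed at 0 throughout. Of 3 B cell markers, 2 were above 0 in U937 and 1 in HL-60, and COL1A1 was above 0 in U937 while EPCAM was not.

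Promoter sequence is shown for IL8, CCR1 and CCR2, the members called in HL-60 for which the RefSeq promoter table held an entry, and of these IL8 and CCR1 were also called in U937. Each run is the 250 bases before the annotated start, 5′ to 3′ on the strand of the gene, in GRCh38.p14 coordinates. The capitals mark matches on either strand to 5 motifs that were chosen after the expression values were known, and no match within these runs overlapped another. The IL8 run lies at chr4:73740319-73740568 on the forward strand, the CCR1 run at chr3:46208314-46208563 on the reverse strand and the CCR2 run at chr3:46353861-46354110 on the forward strand.
IL8: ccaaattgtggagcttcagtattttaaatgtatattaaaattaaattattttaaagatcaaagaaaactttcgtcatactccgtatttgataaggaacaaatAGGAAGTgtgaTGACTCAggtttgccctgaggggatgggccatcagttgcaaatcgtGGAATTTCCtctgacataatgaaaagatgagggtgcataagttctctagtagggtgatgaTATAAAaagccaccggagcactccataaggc
CCR1: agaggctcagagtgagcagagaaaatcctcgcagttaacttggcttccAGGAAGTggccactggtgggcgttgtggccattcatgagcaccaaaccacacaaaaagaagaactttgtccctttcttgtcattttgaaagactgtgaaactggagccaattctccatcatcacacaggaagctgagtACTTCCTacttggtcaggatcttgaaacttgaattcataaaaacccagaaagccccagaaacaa
CCR2: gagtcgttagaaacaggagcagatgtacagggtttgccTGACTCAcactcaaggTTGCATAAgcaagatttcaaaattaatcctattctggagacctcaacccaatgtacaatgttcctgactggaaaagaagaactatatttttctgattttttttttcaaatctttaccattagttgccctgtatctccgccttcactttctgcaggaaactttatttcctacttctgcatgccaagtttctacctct

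In the IL8 run, an NF-kappaB match (GGNNNTTCC) lay 91 to 83 bases before the start, an AP-1 match (TGANTCA) 137 to 131, an ETS match (AGGAAGT) 148 to 142 and a TATA box match (TATAAA) 31 to 26. The CCR1 run held the ETS letters at 202 to 196 and, on the other strand, at 64 to 58 bases before the start. The CCR2 run held an AP-1 match at 212 to 206 and a C/EBP match (TTGCNNAA) at 196 to 189. Among 35116 promoter windows of the same length, 17.1% held the NF-kappaB letters, 6.57% AP-1, 9.05% C/EBP, 7.01% ETS and 10.7% the TATA box. Promoters were matched for 7 of the 10 members. The other members with an entry held matches before their first listed start too. CXCL2 had the NF-kappaB letters at 77 to 69 and at 53 to 45 bases before it and the C/EBP letters at 188 to 181. CXCR4, which was called in no line, had the NF-kappaB letters at 230 to 222 and the TATA box letters at 30 to 25 and, overlapping on the other strand, at 32 to 27. CCL3 had the C/EBP letters at 116 to 109 and the TATA box letters at 29 to 24, and CX3CR1 had the ETS letters at 12 to 6. A match describes the letters only and was not tested for binding.

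Of the ligands, CCL2 and IL8 were called, both in U937 and in HL-60, and in opposite directions there. CCL2 lies on chromosome 17 at 32582293 to 32584227 of GRCh37, on the forward strand. In U937 it was 75 and 193 with pLKO against 1819 and 1647 with shRNF5. In HL-60 it was 526, 1023 and 1067 with pLKO against 136, 470 and 155 with shRNF5. The constructs did not overlap in either line. CCL2 rose 14.3-fold in U937 (log2 fold change 3.83, SE 0.40, limma adjusted p = 0.00287), from a mean of 134.0 ± 83.4 to 1733.0 ± 121.6 (SD, n = 2 and 2). It fell 3.85-fold in HL-60, from 872.0 ± 300.5 to 253.7 ± 187.6 (SD, n = 3 and 3), with a log2 fold change of -1.95, an SE of 0.42 and a limma adjusted p of 0.0111. In MOLM-13 all 5 libraries were listed at 0.

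Scaled to 1000000 summed values per library, which orders the groups without a test because the lines were normalized separately, CCL2 was highest in U937 with shRNF5 (scaled level 103 ± 1.57, SD, n = 2). HL-60 with pLKO followed at 53.7 ± 18. HL-60 with shRNF5 (15.6 ± 11.8) and U937 with pLKO (8.3 ± 5.3) came next, and their ranges overlapped. U937 thus lay above every HL-60 pLKO library with shRNF5 and below all of them with pLKO.

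IL8, on chromosome 4 at 74606236 to 74609433 (forward strand), moved in the same directions as CCL2 in these 2 lines. It was 112 and 82 with pLKO against 1110 and 451 with shRNF5 in U937, and the higher of the shRNF5 libraries was replicate 1. In HL-60 it was 409, 247 and 301 with pLKO against 230, 182 and 107 with shRNF5. The groups did not overlap in either line. IL8 rose 7.32-fold in U937 (log2 fold change 2.87, SE 0.43, limma adjusted p = 0.0144) and fell 1.89-fold in HL-60 (log2 fold change -0.92, SE 0.28, limma adjusted p = 0.0413). The HL-60 call was lost without pLKO replicate 1 (adjusted p = 0.128), pLKO replicate 3 (0.112) or shRNF5 replicate 3 (0.129), with a log2 fold change of -0.72, -0.94 and -0.61 in turn. In MOLM-13 IL8 was low and the groups overlapped, at 47, 22 and 64 with pLKO and 16 and 52 with shRNF5 (log2 fold change -0.47, 95% interval -1.88 to 0.95). On the same scale, U937 with shRNF5 held the highest IL8 level (45.7 ± 25.2, SD, n = 2) and both MOLM-13 groups the lowest, at 1.75 ± 0.862 and 1.36 ± 1.03.

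CCL5, a chemoattractant for T cells and monocytes that lies on chromosome 17 at 34198495 to 34207797 (reverse strand), was above 0 in every library and was called in no line. It was 564, 594 and 940 with pLKO and 595 and 687 with shRNF5 in MOLM-13. It was 766 and 1278 against 573 and 1007 in U937, where the groups also overlapped. In HL-60 it was 128, 130 and 138 against 127, 63 and 107, so that the highest shRNF5 library sat just under the lowest pLKO library. CCL5 had a log2 fold change of -0.47 in HL-60 (95% interval -1.03 to 0.09), -0.38 in U937 (-1.14 to 0.38) and -0.09 in MOLM-13 (-0.64 to 0.47). Without shRNF5 replicate 1, the HL-60 value became -0.68 with a limma adjusted p of 0.0999, which passes the threshold. The scaled levels of U937 and MOLM-13 lay between 22.1 and 79.8 in single libraries and those of HL-60 between 3.91 and 8.49.

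The remaining ligands were listed at 0 in most libraries. CCL3 (chromosome 17, 34415602 to 34417515, reverse strand) was listed above 0 in U937 alone, at 95 and 37 with pLKO and 49 and 50 with shRNF5, and was not called (log2 fold change -0.26, SE 0.55). CXCL2 (chromosome 4, 74962757 to 74964913, reverse strand) was likewise above 0 in U937 alone, at 0 and 23 with pLKO and 21 and 17 with shRNF5. Its log2 fold change of 2.02 (95% interval -0.83 to 4.87, limma adjusted p = 0.334) rested on the pLKO library at 0. It was -0.27 without that library (replicate 2) and 4.32, with an adjusted p of 0.0619, without pLKO replicate 3. CCL4 (chromosome 17, 34431220 to 34433014, forward strand) was listed at 0 in all 15 libraries. CCL3 and CCL4 have the near-identical copies CCL3L1, CCL3L3, CCL4L1 and CCL4L2, and CXCL2 has the close relatives CXCL1 and CXCL3. All 6 were listed at 0, and how reads shared among these genes were counted makes the values of CCL3, CCL4 and CXCL2 uncertain.

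**Figure D1:**
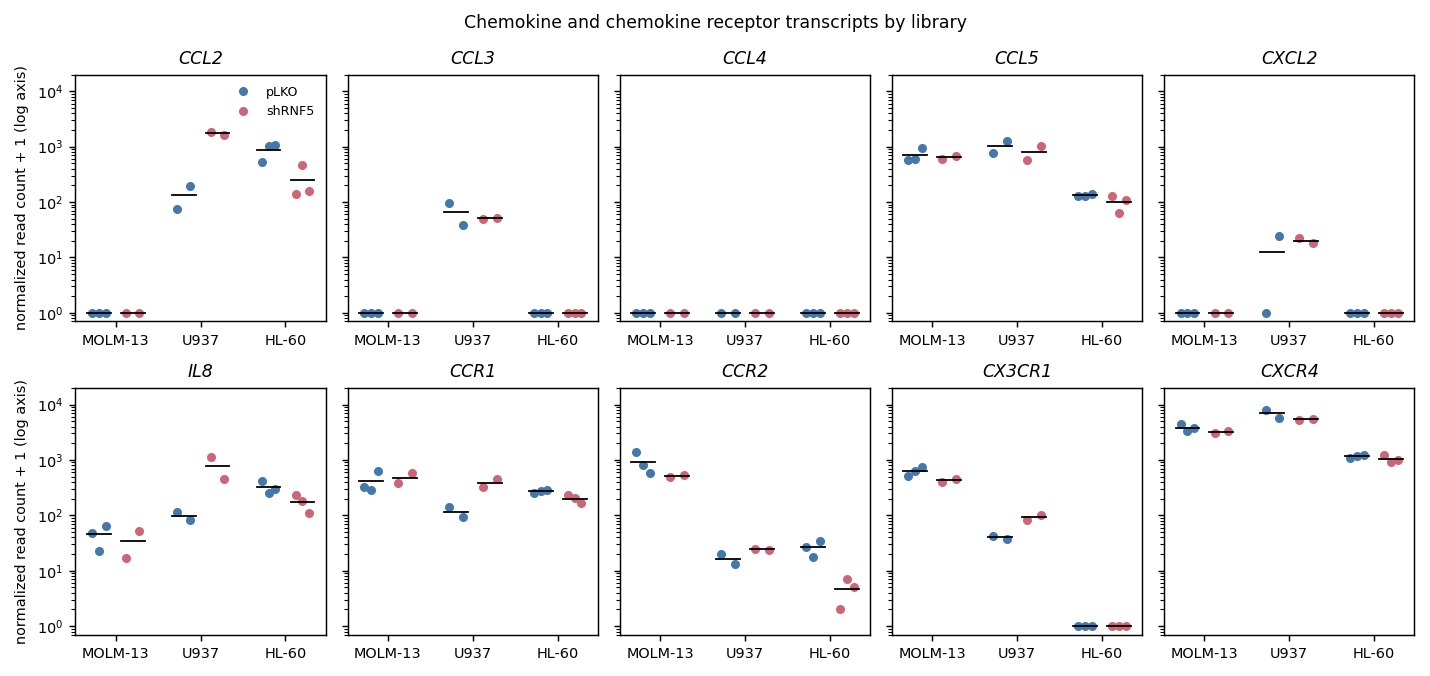
Normalized read count + 1 on a log axis for each of the 10 genes in each library, by line, with pLKO in blue and shRNF5 in red, a point per library and a black bar at the group mean; a point at 1 is a library listed at 0. CCL2 and IL8 lie higher with shRNF5 in U937 and lower with shRNF5 in HL-60, while CXCR4 lies between 925 and 8056 in every library.

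Among the receptors, CCR1, which binds CCL3 and CCL5 on monocytes and granulocytes, was called in U937 and HL-60 in opposite directions. It lies on chromosome 3 at 46243202 to 46249804 on the reverse strand. In U937 it was 139 and 92 with pLKO against 323 and 451 with shRNF5. In HL-60 it was 251, 271 and 290 with pLKO against 231, 206 and 164 with shRNF5, again without overlap. CCR1 rose 3.35-fold in U937 (log2 fold change 1.75, SE 0.37, limma adjusted p = 0.0276) and fell 1.36-fold in HL-60 (log2 fold change -0.44, SE 0.17, limma adjusted p = 0.0961). The HL-60 value stood close to the threshold of 0.1 and passed it in 1 of 6 fits on 5 libraries, the one without shRNF5 replicate 1, with adjusted p-values of 0.124 to 0.279 in the others. In MOLM-13 it was 327, 291 and 633 with pLKO and 379 and 576 with shRNF5, and the groups overlapped (log2 fold change 0.25, 95% interval -0.54 to 1.05). CCR3 overlaps CCR1 on the opposite strand and was listed at 0 throughout.

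CCR2, the receptor of CCL2, set MOLM-13 apart in level. The gene lies on chromosome 3 at 46395355 to 46402431 on the forward strand. It was 1385, 797 and 571 with pLKO against 484 and 531 with shRNF5 in MOLM-13, so the groups did not overlap, but the gene was not called (log2 fold change -0.76, 95% interval -1.51 to -0.0, limma adjusted p = 0.294). In HL-60 it was 26, 17 and 34 with pLKO against 1, 6 and 4 with shRNF5, values that stand for a few reads each in the shRNF5 libraries. In HL-60 CCR2 fell by 2.64 on the log2(value + 1) scale (SE 0.54, limma adjusted p = 0.00871), and a pseudocount of 10 gave -1.37 with an adjusted p of 0.00733. In U937 it was 19 and 12 with pLKO and 24 and 23 with shRNF5, which did not overlap and was not called (log2 fold change 0.60, SE 0.67). The scaled level of CCR2 was thus highest in MOLM-13, at 36 ± 16.3 with pLKO (SD, n = 3) and 20.2 ± 1.63 with shRNF5 (SD, n = 2), against at most 2.09 in any U937 or HL-60 library. The line with the highest CCR2 level was the line in which its ligand CCL2 was listed at 0.

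CX3CR1, a marker of patrolling monocytes, lies on chromosome 3 at 39304986 to 39323226 (reverse strand) and was listed at 0 in all HL-60 libraries. In MOLM-13 it was 505, 643 and 733 with pLKO against 400 and 461 with shRNF5. In U937 it was 42 and 36 with pLKO against 82 and 101 with shRNF5. The shRNF5 libraries thus lay below the pLKO libraries in MOLM-13 and above them in U937, and the gene was called in neither line. CX3CR1 had a log2 fold change of -0.53 in MOLM-13 (SE 0.20, limma adjusted p = 0.251) and of 1.21 in U937 (SE 0.47, limma adjusted p = 0.131). Without pLKO replicate 1 the MOLM-13 value was -0.68 with an adjusted p of 0.0775. The U937 value passed in 1 fit over all libraries (limma adjusted p = 0.0028). That fit took the HL-60 listings at 0 as values without spread, which can lower the SE, there 0.24. The call therefore does not rest on the U937 libraries alone and adds no support.

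CXCR4, the receptor of CXCL12, lies on chromosome 2 at 136871919 to 136876747 (reverse strand) and was far above 0 in every library. It was 4464, 3342 and 3722 with pLKO and 3027 and 3393 with shRNF5 in MOLM-13. In U937 it was 8056 and 5746 against 5318 and 5419, and in HL-60 1094, 1179 and 1208 against 1237, 925 and 979. The shRNF5 mean was lower in each line, but the groups overlapped in MOLM-13 and HL-60 and CXCR4 was called in no line. CXCR4 had a log2 fold change of -0.34 in U937 (95% interval -0.91 to 0.22), -0.25 in MOLM-13 (-0.62 to 0.12) and -0.16 in HL-60 (-0.46 to 0.14). The scaled level of CXCR4 was ordered by line, with U937 at 424 ± 92.1 and 319 ± 21.8 (SD, n = 2 and 2, pLKO and shRNF5), MOLM-13 at 151 ± 22.8 and 128 ± 12.2 (SD, n = 3 and 2) and HL-60 at 71.6 ± 2.97 and 63.8 ± 10.5 (SD, n = 3 and 3). The ranges of different lines did not overlap.

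Levels can be compared between genes only per length. Per kilobase of exon, the mean normalized read count of CXCR4 with pLKO exceeded that of 98.8% of the measured genes in U937, 94.5% in MOLM-13 and 84.8% in HL-60. CCL5 exceeded 93.2%, 81.9% and 51% in the same order. In HL-60 CCL2 ranked highest of the members per kilobase, above 86.8% of genes, and in U937 with pLKO it stood above 39.3%. IL8 exceeded 57.4% of genes in HL-60, 26.5% in U937 and 10.8% in MOLM-13. The labels name a 3′ tag library kit and the study's methods a kit that covers whole transcripts, and with 3′ tags a division by length would understate long genes, so these ranks hold only for the second kind of library.

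Counted within each line, 9 of the 10 genes were tested in U937 and 6 each in MOLM-13 and HL-60, the others being listed at 0. In MOLM-13, limma called 0 of the 6 members, where 2.04% of all 13026 genes tested were called (1.03% higher and 1.01% lower), and 2 members (CCR2 and CX3CR1) had an unadjusted p-value under 0.05. The MOLM-13 shRNF5 libraries were also the deeper ones, with 1 read worth 0.398 and 1.02 units against 1.692 to 2.561 with pLKO, and the part of depth was not tested. In U937, 3 members were called higher and 0 lower, against 6.92% and 8.74% of 13165 genes. In HL-60, 0 were called higher and 4 lower, against 13.6% and 12.3% of 12570 genes. The groups did not overlap for 6 members in U937, 5 in HL-60 and 2 in MOLM-13, beside 59.2%, 38.5% and 38.7% of all genes tested. Across the members tested, the median log2 fold change was 1.21 in U937, -0.70 in HL-60 and -0.36 in MOLM-13, beside 0.0, 0.0 and 0.01 over all genes. Since only the genes that passed the authors' filter enter these counts, a gene whose level was low with both constructs is left out of them.

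**Figure D2:**
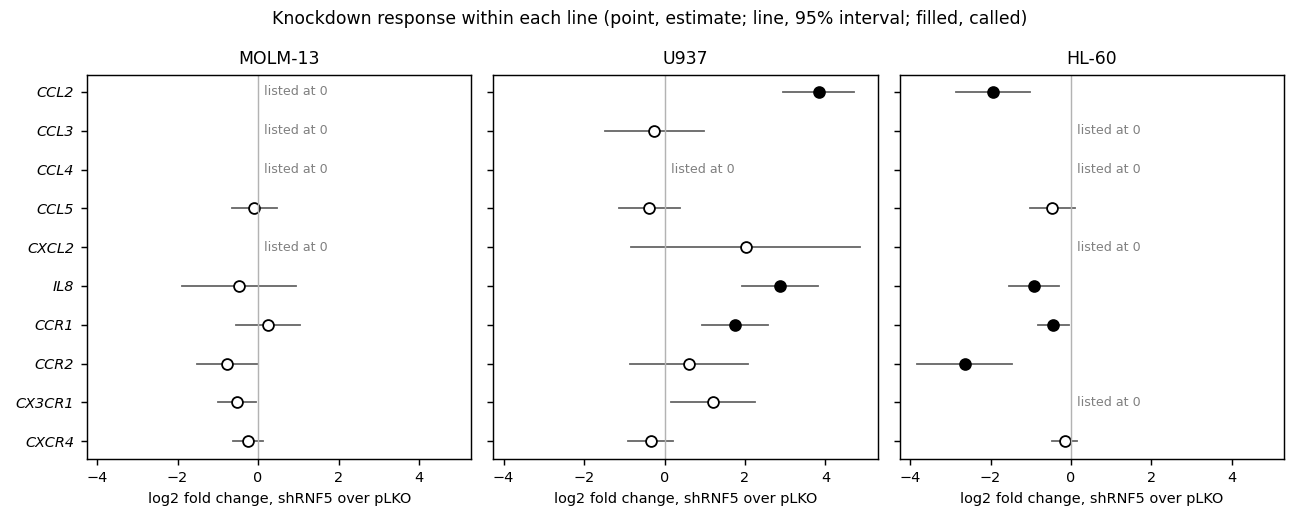
Log2 fold change of shRNF5 over pLKO for each gene in each line, with its 95% interval as a line; filled points are called genes and open points are not. The filled points stand at 3.83, 2.87 and 1.75 in U937 and at -1.95, -0.92, -0.44 and -2.64 in HL-60, and no point is filled in MOLM-13.

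The calls in U937 rest on 2 libraries per group, so each fit without a library leaves 1 in a group. Such fits do not settle whether a call is stable. The fit without pLKO replicate 3 keeps pLKO replicate 2 as its only control. That library had a mean correlation of 0.884 with the shRNF5 libraries, against 0.931 for pLKO replicate 3. CCL2, IL8 and CCR1 were each called again without pLKO replicate 3, and none of them was called without pLKO replicate 2, shRNF5 replicate 1 or shRNF5 replicate 3, although their log2 fold changes stayed at 3.16 to 4.51, 2.22 to 3.52 and 1.45 to 2.04. Over all genes the U937 calls numbered 0, 0 and 6 in those 3 fits, beside 2062 with all libraries. In HL-60, CCL2 and CCR2 were called in each of the 6 fits on 5 libraries, with log2 fold changes of -2.51 to -1.62 and -3.02 to -2.12. CCR2 was near 0 with shRNF5 there, at 1, 6 and 4, and genes low with both constructs are listed at 0. Its HL-60 call can therefore lean toward a fall, and its repetition across these fits does not remove that limit.

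Other measures also moved with the construct. The summed level of the 11 myeloid markers was 38500 to 47589 in the U937 pLKO libraries and 21413 to 24297 in the shRNF5 libraries. In HL-60 it was 121796 to 152158 with pLKO and 172312 to 261384 with shRNF5, whereas in MOLM-13 the ranges overlapped, at 73869 to 118211 and 80814 to 107421. The B cell markers summed to 120 to 126 with pLKO and 65 to 74 with shRNF5 in U937, and to 22 to 34 and 38 to 44 in HL-60. COL1A1 in U937 was 39 to 234 with pLKO and 15 to 29 with shRNF5. The sum was carried by a few granule genes, in HL-60 mainly by MPO, which was 105563 to 130372 with pLKO and 141317 to 207430 with shRNF5. In U937, AZU1 was 12516 to 13539 with pLKO and 1749 to 3267 with shRNF5, and ELANE 9166 to 11149 and 4077 to 5780. Not all myeloid markers moved with the sum. CD33 in HL-60 was 1337 to 1505 with pLKO and 959 to 1070 with shRNF5, and CSF1R in U937 was 17 to 45 and 69 to 71. The ranges of SPI1 overlapped in HL-60, while in U937 it was 1151 to 1962 with pLKO and 759 to 991 with shRNF5. The part of these markers in the results was not tested. In bulk RNA, fewer cells that express a gene and less of its RNA per cell cannot be told apart.

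Whether the knockdown response differed between lines was tested as a difference of log2 fold changes in 1 limma fit over the 15 libraries, which held the 5 members listed above 0 in all lines. Between U937 and HL-60 the response of IL8 differed by 3.79 (SE 0.73, limma adjusted p = 0.00238), that of CCR1 by 2.19 (SE 0.44, adjusted p = 0.00282) and that of CCR2 by 3.24 (SE 0.69, adjusted p = 0.00395). These 3 of 5 members stand beside 37.2% of all 11072 genes in that fit. The CCR2 difference depended on the pseudocount, since its values in these 2 lines were 1 to 34. With a pseudocount of 10 it was 1.78 (limma adjusted p = 0.0112). The limit that the filter sets on the CCR2 fall in HL-60 applies to this difference as well. CCL5 differed by 0.09 (SE 0.45) and CXCR4 by -0.18 (SE 0.25), and neither passed the threshold. CCL2, which the listing at 0 in MOLM-13 kept out of this fit, differed by 5.78 (SE 0.70, limma adjusted p = 0.00107) in a fit of U937 and HL-60 alone that was added after the values were seen, where 34.4% of 11518 genes passed. The IL8, CCR1, CCR2 and CCL2 differences were called again whichever of the 10 libraries of U937 and HL-60 was left out.

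Between MOLM-13 and U937, 2 of the 5 members differed, beside 15.4% of all genes. The IL8 response in MOLM-13 was lower by a log2 difference of -3.34 (SE 0.77, limma adjusted p = 0.0224) and the CCR1 response by one of -1.49 (SE 0.46, limma adjusted p = 0.0588). The IL8 difference was not called without U937 shRNF5 replicate 1 (adjusted p = 0.146), nor the CCR1 difference without U937 shRNF5 replicate 1 (0.141), U937 shRNF5 replicate 3 (0.132), MOLM-13 shRNF5 replicate 1 (0.205) or MOLM-13 shRNF5 replicate 2 (0.116). This comparison shares its U937 libraries with the one between U937 and HL-60. CX3CR1, listed at 0 in HL-60, was not in the fit, and whether its response differed between MOLM-13 and U937 was not tested. Between MOLM-13 and HL-60, limma called 0 of the 5, beside 8.82% of all genes, and 1 member, CCR2, had an unadjusted p-value under 0.05 (difference 1.88, SE 0.65, adjusted p = 0.11). The CCR2 difference passed without MOLM-13 pLKO replicate 1 (2.23, adjusted p = 0.0991), HL-60 pLKO replicate 2 (2.14, 0.0834) or HL-60 shRNF5 replicate 2 (2.27, 0.0635), and the CCR1 difference without MOLM-13 pLKO replicate 3 (1.04, 0.0932). With a pseudocount of 10 the CCR2 difference was 0.625 (limma adjusted p = 0.418). Its size depended on HL-60 shRNF5 values of 1, 6 and 4.

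**Figure D3:**
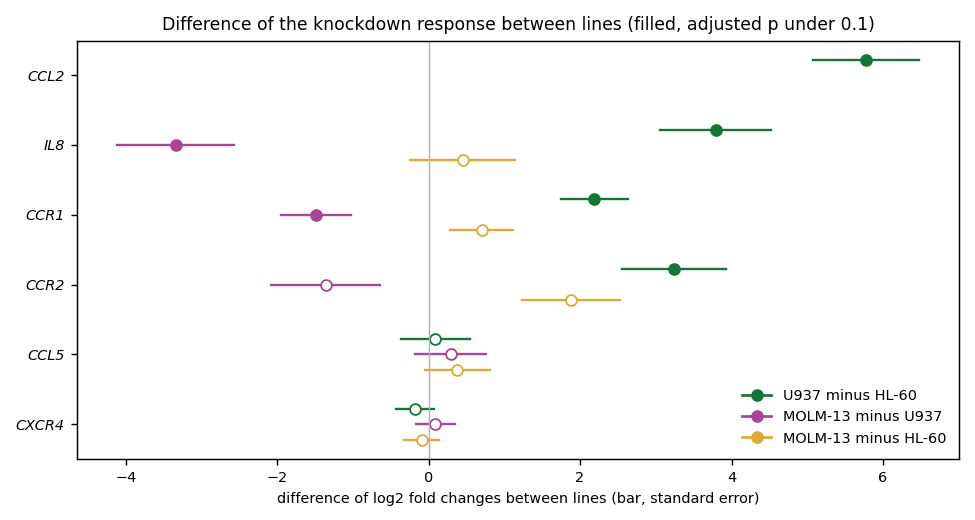
Difference of the log2 fold changes between 2 lines, at a pseudocount of 1, for the 5 members above 0 in all lines, with the standard error as a bar. CCL2 is shown for U937 minus HL-60 only, from the fit of those lines alone. Colours give the pair of lines and filled points have an adjusted p-value under 0.1. The U937 minus HL-60 differences of CCL2, IL8, CCR2 and CCR1 stand at 5.78, 3.79, 3.24 and 2.19, while all points of CCL5 and CXCR4 lie between -0.18 and 0.38.

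The rest of the chemokine system was examined through lists chosen by family and function. Of 42 other chemokine ligands, MOLM-13 had 5 that were tested, U937 had 4 and HL-60 had 0. In MOLM-13, CXCL10, an interferon-induced ligand of CXCR3, was 51, 73 and 92 with pLKO against 290 and 261 with shRNF5 and rose (log2 fold change 1.96, SE 0.30, limma adjusted p = 0.0508). Its call was lost without pLKO replicate 2 (adjusted p = 0.173), shRNF5 replicate 1 (0.386) or shRNF5 replicate 2 (0.318). In U937, CCL1, the ligand of CCR8, was 0 and 1 against 18 and 19, and CXCL6, a neutrophil attractant that acts through CXCR1 and CXCR2, was 1 and 8 against 24 and 43. Both were called higher (limma adjusted p = 0.0546 and 0.0757), at levels where the log2 fold change depended on the pseudocount, from 1.44 to 4.46 for CCL1 and from 1.59 to 3.19 for CXCL6 between pseudocounts of 10 and 0.5. Leaving out a library moved CXCL6 between 1.88 and 4.05, and it was 1.88 without pLKO replicate 2. The median log2 fold change of the list was 0.15 in MOLM-13 and 1.59 in U937, beside 0.01 and 0.0 over all genes. Of the tested genes, 1 of 5 was called in MOLM-13 and 2 of 4 in U937, beside 2.04% and 15.7% of all genes. CCL1 and CXCL6 were near 0 with pLKO, and genes low with both constructs are listed at 0. The U937 count and median can therefore lean upward and describe the 4 tested genes only.

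Of 19 other receptors, 16 were found in the data by symbol, and 3, 2 and 2 of these were tested in MOLM-13, U937 and HL-60. CCRL2, an atypical receptor that binds chemerin, was 13 and 39 with pLKO against 79 and 99 with shRNF5 in U937 and rose (log2 fold change 1.92, SE 0.60, limma adjusted p = 0.0783). Its log2 fold change was 1.16 without pLKO replicate 2 and 2.68 without pLKO replicate 3. CXCR2, the receptor of IL8 and CXCL2, was 259, 179 and 136 with pLKO against 134, 104 and 115 with shRNF5 in HL-60 and fell by 0.65 on the log2 scale (SE 0.24, limma adjusted p = 0.0785). IL8 and its receptor were thus both called lower in HL-60. A lower CXCR2 was not particular to HL-60. In MOLM-13 it was 129, 152 and 197 with pLKO against 64 and 109 with shRNF5, without overlap. It was not called there (log2 fold change -0.90, SE 0.32, limma adjusted p = 0.226). In U937 CXCR2 had a log2 fold change of 0.55 (SE 0.41) and was not called. The CXCR2 call in HL-60 held in 2 of 6 fits on 5 libraries, without pLKO replicate 3 and without shRNF5 replicate 1. Its log2 fold change in those 6 fits ranged from -0.87 to -0.41. The list had a median of 1.23 in U937, -0.04 in HL-60 and -0.32 in MOLM-13, beside 0.0, 0.0 and 0.01 over all genes. In the same order 1, 1 and 0 of its genes were called, beside 15.7%, 25.9% and 2.04% of all genes. These counts hold only genes that passed the filter.

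**Figure D4:**
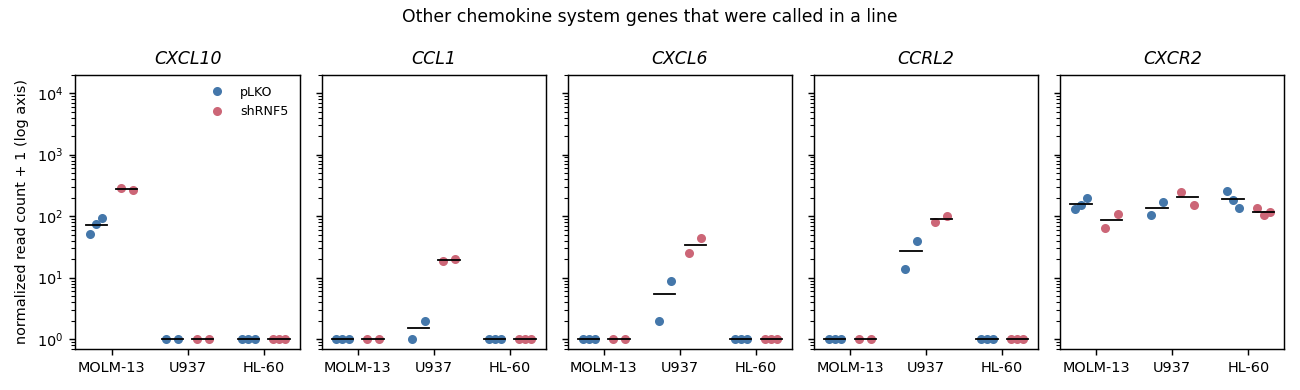
Normalized read count + 1 on a log axis for the 5 other chemokine system genes called in a line, by line and construct, with a point per library and a black bar at the group mean; a point at 1 is a library listed at 0. CXCL10 is above 0 in MOLM-13 alone, with 51 to 92 in pLKO and 261 to 290 in shRNF5 libraries, and CXCR2 is above 0 in every library.

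The signalling machinery behind the receptors was nearly all expressed. Of 24 genes for G protein subunits, phospholipases, phosphoinositide 3-kinase, Rac activators, arrestins, receptor kinases and RGS proteins, 24 were tested in MOLM-13 and U937 and 22 in HL-60. The share called was 31.8% in HL-60, 12.5% in U937 and 0% in MOLM-13, near the 25.9%, 15.7% and 2.04% of all genes. In MOLM-13 limma called 0, with 2 genes at an unadjusted p-value under 0.05. In U937, 3 rose and 0 fell, namely GNAI3 (log2 fold change 0.85), which encodes an inhibitory G protein alpha subunit, GNG2 (0.99), a gamma subunit, and RAC2 (0.99), the leukocyte Rac GTPase. In HL-60, 4 rose and 3 fell. GNAI2 (0.55), PREX1 (0.40), ADRBK1 (0.51) and RGS2 (0.67) were higher, while PIK3CG (-1.31), the PI3K-gamma catalytic subunit that chemokine receptors engage, ARRB2 (-1.03), which desensitizes and internalizes receptors, and GNB1 (-0.47) were lower. PIK3CG was 1305.3 ± 247.4 with pLKO and 549.3 ± 243.9 with shRNF5 in HL-60 (SD, n = 3 and 3) and was called lower in each of the 6 fits without a library, as was ARRB2. GNB1 was called in 5 of them and GNAI2 in 4. The calls of ADRBK1, PREX1 and RGS2 each held in 1 of those 6. The list medians were -0.05, 0.18 and 0.01 in MOLM-13, U937 and HL-60.

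Of 17 inflammatory cytokine and feedback genes, 11, 11 and 10 were tested in MOLM-13, U937 and HL-60, again beside 2.04%, 15.7% and 25.9% of all genes called. In MOLM-13 limma called 0, with 0 at an unadjusted p-value under 0.05. In U937, 4 rose and 0 fell. TNF was 18 and 16 with pLKO against 229 and 113 with shRNF5 (log2 fold change 3.17, limma adjusted p = 0.0179). PTGS2, the inducible cyclooxygenase, rose by 2.80, the dendritic cell marker CD83 by 1.72 and ZFP36, which destabilizes AU-rich mRNAs such as that of TNF, by 0.91 on the log2 scale. PTGS2 was 9 and 11 with pLKO against 82 and 69 with shRNF5. TNF and PTGS2 were thus low with pLKO, and genes low with both constructs are listed at 0. The U937 count and median of this list can therefore lean upward. In HL-60, 4 genes of this list rose, namely PTGS2 (1.48), NFKBIA (1.00), the inhibitor of NF-kappaB, IL1B (0.92) and CD83 (0.53), and 1 fell, TNFAIP3 (-0.49), another feedback inhibitor. PTGS2, NFKBIA and IL1B were called in each of the 6 HL-60 fits without a library, TNFAIP3 in 5 and CD83 in 1. In U937, each call named here from the 4 lists held in 1 of the 4 fits without a library, the one without pLKO replicate 3, and the log2 fold change of CD83 there was 0.94 without pLKO replicate 2. The list medians were 0.13, 0.40 and 0.32, beside 0.01, 0.0 and 0.0 over all genes.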

How the data were processed

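The line, construct and replicate number of each RNA-seq library were taken from the sample labels. The authors aligned reads to hg19 with STAR, counted them with featureCounts of the Subread package and normalized them per line with edgeR through SARTools. Per the labels and the methods, the deposited values are a score, that is, counts scaled by a factor per library and rounded, with filtered genes at 0. The labels name a QuantSeq 3′ kit and the methods a directional poly(A) kit, and these cannot be told apart here.

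The values were analysed as log2(value + 1) with limma 3.58.1 (empirical Bayes with a mean-variance trend) in R 4.3.3, within each line, over all genes above 0 in a library of that line, with Benjamini-Hochberg adjustment. Since the values are not counts, no count model was run. Depth was estimated from the spacing of each library's rounded values, and no counting interval is given; precision is lowest for genes at low values. The procedures were tested on simulated data. Promoter windows came from RefSeq (GRCh38.p14), and gene coordinates from GENCODE on GRCh37, where CCL3, CCL4 and CCL5 were matched by symbol. Figures were drawn with matplotlib 3.10.9.

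The members and all gene lists were chosen with earlier results of these data known. The text names all 10 members, RNF5 and every gene of the 4 lists called in a line. Alternatives were other pseudocounts, filters, scaling, variance model, threshold and samples in the fit, the replicate number as a block, and each library left out in turn.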

Additional observations from a re-analysis of the deposited data

Results flagged for a closer look

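These results were flagged because 2 lines responded differently to the knockdown when the difference of their responses was tested. The same threshold was passed by 37.2% of all genes between U937 and HL-60 and by 34.4% in the fit of those lines alone. Between MOLM-13 and U937 it was passed by 15.4%. Passing it therefore does not by itself set these genes apart. The difference of log2 fold changes between U937 and HL-60 was 5.78 for CCL2 (in the fit of those lines alone), 3.79 for IL8, 3.24 for CCR2 and 2.19 for CCR1, each with U937 the higher. With a pseudocount of 10 the CCR2 difference was 1.78. Between MOLM-13 and U937 the difference was -3.34 for IL8 and -1.49 for CCR1, each with MOLM-13 the lower. The groups of 2 or 3 libraries are too small for a test of single outlying libraries.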

How the results depend on the processing

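No called result changed direction under any alternative run. The number of members called was 0 in MOLM-13 and became 1 with the replicate block (CCR2, log2 fold change -1.05, limma adjusted p = 0.0377) and 0 to 1 without a library. It was 3 in U937 and 0 to 4 without a library, and 4 in HL-60, 2 with 1 fit over all libraries (CCL2 and CCR2) and 2 to 5 without a library. Members whose response differed numbered 2 between MOLM-13 and U937, 1 at an adjusted p under 0.05 and 0 to 2 without a library, where 0 came without U937 shRNF5 replicate 1, and 0 between MOLM-13 and HL-60, with 0 to 1 without a library. The CCR1 call in HL-60 was also lost without the mean-variance trend (adjusted p = 0.106) and in 1 fit over all libraries (0.314), where IL8 was lost too (0.222). The fit over all libraries took listings at 0 in a filtered line as values without spread. This can lower the SE of genes listed at 0 in a line, CCL2 among them. Over all genes, calls in MOLM-13, U937 and HL-60 numbered 266, 2062 and 3251, then 55, 475 and 2995 without the trend, 39, 824 and 2415 at an adjusted p under 0.05, and 598, 5239 and 2770 in 1 fit over all libraries, and leaving out a library gave 1 to 872, 0 to 2369 and 1970 to 3413.

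Deviations of same-numbered libraries correlated at -0.173 and -0.53 in MOLM-13, 0.256 in U937, and 0.505, 0.156 and -0.109 in HL-60, so that 3 of 6 were positive, and the numbers were not taken as pairs. With the replicate block, calls over all genes were 741 in MOLM-13 and 3580 in HL-60, and 4 members were called in HL-60. In MOLM-13 the block kept replicates 1 and 2 alone, so pLKO replicate 3 was left out of that fit. Without that library and without the block, CCR2 had the same log2 fold change of -1.05. It was not called there (limma adjusted p = 0.138). No paired analysis was possible in U937 because its groups share only replicate number 3. Where leaving out a library left 1 library in a group, that library was assumed to vary like the others. Depth limits the genes near 0, above all CCR2 in HL-60 and CXCL2 and CCL1 in U937.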
